A study of Mus musculus with 57 samples.

Results

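The trimethylation of histone H3 at lysine 4 (H3K4me3) was compared between 6 h and 12 h of Wnt pathway stimulation in mouse epiblast stem cells (EpiSCs), across the whole genome. Both times were measured by ChIP-seq with the same antibody in Wnt3KO EpiSCs, which lack the ligand gene Wnt3, with 1 library per time. By the growth protocol the cells were kept in IWP2 (2 µM), an inhibitor of Wnt secretion, and for stimulation IWP2 was withdrawn and CHIR99021 (Chiron, 3 µM) was added. The label of the H3K4me3 library at 0 h gives no stimulation and does not mention IWP2, which the Ring1b labels at 0 h do. The libraries before stimulation (0 h) and at 72 h of CHIR99021, 1 each and of the same genotype, served as reference. The labels do not say how many clones or cultures the Wnt3KO cells represent. These are 2 of the 57 samples of the series, which also holds other chromatin marks, ATAC-seq and 4C. The 6 h list held 17385 H3K4me3 regions and the 12 h list 17714. A region was called listed at one time only when no region of the other list shared at least 1 bp with it. That rule gave 1280 regions at 12 h only and 890 at 6 h only, and the remaining 16434 regions of the 12 h list and 16495 of the 6 h list were shared.

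H3K4me3 marks the nucleosomes around the start sites of active genes and is deposited by the SET1 and MLL complexes, several of which reach DNA through a protein domain that binds unmethylated CG dinucleotides. In pluripotent cells many silent developmental genes carry H3K4me3 together with the Polycomb mark H3K27me3, a state known as bivalent. CHIR99021 inhibits the kinase GSK3, which stabilises β-catenin, and β-catenin with TCF and LEF factors activates Wnt target genes. In the posterior epiblast and primitive streak Wnt signalling switches on T (Brachyury), Cdx2, Evx1 and the Hox genes, which are activated in the order of their position in each cluster, in HoxB beginning at the Hoxb1 end.

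Start sites of 61 genes were placed in mm9, the build of the files, from knowledge of the genome. RefSeq promoter sequences of GRCm38.p6 were found for 39 of them. The promoters of 4 genes on which the results turn are shown, each from 250 bases before to 50 bases after the start, with every CG dinucleotide in capitals. Evx1, Hoxb1 and Hoxd13 had a region listed at 12 h only within 2 kb of the start, and T was the streak gene next to Evx1 in the added covered length.
Evx1, chr6:52313248-52313547, plus strand: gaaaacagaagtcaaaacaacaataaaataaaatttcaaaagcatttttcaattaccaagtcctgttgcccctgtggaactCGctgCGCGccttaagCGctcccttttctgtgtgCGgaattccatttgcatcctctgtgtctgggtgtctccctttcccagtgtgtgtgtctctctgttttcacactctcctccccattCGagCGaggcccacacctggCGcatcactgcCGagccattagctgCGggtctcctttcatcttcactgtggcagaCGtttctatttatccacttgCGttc
Hoxb1, chr11:96365508-96365807, plus strand: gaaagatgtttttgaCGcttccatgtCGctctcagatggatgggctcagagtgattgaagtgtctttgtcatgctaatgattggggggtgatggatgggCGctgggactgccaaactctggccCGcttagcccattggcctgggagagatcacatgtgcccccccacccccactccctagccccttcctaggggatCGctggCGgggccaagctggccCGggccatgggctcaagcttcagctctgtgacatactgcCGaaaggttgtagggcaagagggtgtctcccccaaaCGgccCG
Hoxd13, chr2:74667975-74668274, plus strand: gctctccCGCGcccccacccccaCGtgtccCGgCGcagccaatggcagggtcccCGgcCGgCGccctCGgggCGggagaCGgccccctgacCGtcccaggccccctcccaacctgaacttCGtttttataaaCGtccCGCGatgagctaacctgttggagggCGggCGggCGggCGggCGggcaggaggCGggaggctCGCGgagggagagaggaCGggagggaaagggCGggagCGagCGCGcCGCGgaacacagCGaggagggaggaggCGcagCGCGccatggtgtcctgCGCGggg
T, chr17:8434173-8434472, plus strand: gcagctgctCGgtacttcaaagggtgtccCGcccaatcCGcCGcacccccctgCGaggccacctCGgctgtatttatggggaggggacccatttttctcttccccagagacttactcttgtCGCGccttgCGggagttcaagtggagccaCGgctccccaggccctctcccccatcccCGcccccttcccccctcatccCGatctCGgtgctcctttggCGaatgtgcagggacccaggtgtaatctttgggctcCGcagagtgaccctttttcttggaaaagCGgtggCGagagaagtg
These coordinates are of GRCm38.p6 and all others below are of mm9. The Evx1 window held 12 CG dinucleotides, that of Hoxb1 held 10, that of T held 17 and that of Hoxd13 held 37, against a median of 7 over 32851 RefSeq promoters. At least as many CG as in Hoxd13 were found in 5.58% of promoters, and at least as many as in Hoxb1 in 43.5%. Heptamers that TCF and LEF factors are known to bind (the form CTTTGAA, its variant CTTTGAT, the form CTTTGTA and its variant CTTTGTT) were searched on both strands. They matched once in the T window and not in those of Evx1, Hoxb1 and Hoxd13, and 16.9% of all promoters held a match.

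Promoters of identity genes were examined, but presence of a region there did not tell cell types apart. Pou5f1 (Oct4), Nanog and Sox2, which define pluripotency, and the epiblast genes Fgf5, Otx2, Pou3f1 and Nodal had an H3K4me3 region within 2 kb of the start at both 6 h and 12 h. So did 6 of 7 genes of primitive streak and mesoderm and the 2 housekeeping genes. In all, 21 of the 22 genes outside the Hox clusters had one at both times. The lists carry no read totals, so depth is unknown, and with 1 library per time no difference has a replicate check. Intervals are 95% Wilson intervals for shares and cover counting error only. The 6 h and 12 h lists came from one processing folder, as the peak names show, and those of 0 h and 72 h from another. The median region was 930 bp long at 6 h and 936 bp at 12 h, but 1237 bp before stimulation and 1230 bp at 72 h, so time and folder cannot be told apart between these pairs.

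Most H3K4me3 regions were listed at both times. At 12 h, 1280 of 17714 regions (7.23%, interval 6.85% to 7.62%) had no counterpart at 6 h, and at 6 h, 890 of 17385 regions (5.12%, 4.80% to 5.46%) had none at 12 h. The shares came closer to each other, 6.03% and 5.59%, when all lists were cut to the same length. For comparison, 6.69% of the 72 h regions were missing at 0 h and 4.83% of the 0 h regions were missing at 72 h, again within one folder. H3K27ac, found at promoters and enhancers in use, differed more between the lists of the same times, with 33.8% of 12 h regions not listed at 6 h and 23.0% of 6 h regions not listed at 12 h. For H3K27me3 the shares were 51.5% and 43.1%.

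The regions listed at one time were short and weak. Their median length was 355 bp at 12 h only and 340.5 bp at 6 h only, against 991 bp and 968 bp for shared regions. The fold enrichment, the authors' ratio of peak summit signal to its local background, had a median of 6.33 for regions at 12 h only and of 6.45 for those at 6 h only, at percentile 8.15 of each full list. Shared regions had medians of 15.5 and 15.6. Many had a near neighbour in the other list, since 51.0% of the regions at 12 h only and 61.1% of those at 6 h only were within 1 kb of one of its regions. When regions within 1 kb were merged first, the one-time shares were 4.55% at 12 h and 2.68% at 6 h. A further group stood alone, with 423 regions at 12 h only and 238 at 6 h only more than 10 kb from any region of the other list. Just outside the overlap rule, 123 regions at 12 h only and 92 at 6 h only had a gap of at most 100 bp, with median folds of 6.19 and 6.11. Just inside it, 66 and 45 regions overlapped by at most 100 bp, with median folds of 6.19 and 6.12.

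Shared regions changed little in length. In 13950 places with a single region at each time, the median change was 12 bp (quartiles −78 to 109 bp). The region was longer at 12 h in 7479 places and shorter in 6412. It was more than 1.5 times longer in 626 and more than 1.5 times shorter in 378. Regions also fused and split, with 904 regions at 12 h spanning several at 6 h and 838 at 6 h spanning several at 12 h.

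Most regions that differed between 6 h and 12 h were listed at 72 h. Of the regions at 12 h only, 959 of 1280 (74.9%, 72.5% to 77.2%) overlapped a 72 h region, and of those at 6 h only, 634 of 890 (71.2%, 68.2% to 74.1%) did. The intervals overlapped. They were apart only with lists cut to the same length, at 82.3% (79.8% to 84.5%) and 75.6% (72.7% to 78.3%), and overlapped under every other alternative setting. The share of shared 12 h regions listed at 72 h was 97.8%. Presence at 72 h was mostly presence before stimulation as well, since 793 regions at 12 h only (62.0%) and 538 at 6 h only (60.4%) were listed at both 0 h and 72 h. Regions listed at neither numbered 204 (15.9%) and 154 (17.3%). In all, 910 of the regions at 12 h only (71.1%) and 640 of those at 6 h only (71.9%) were listed at 0 h.

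**Figure D1:**
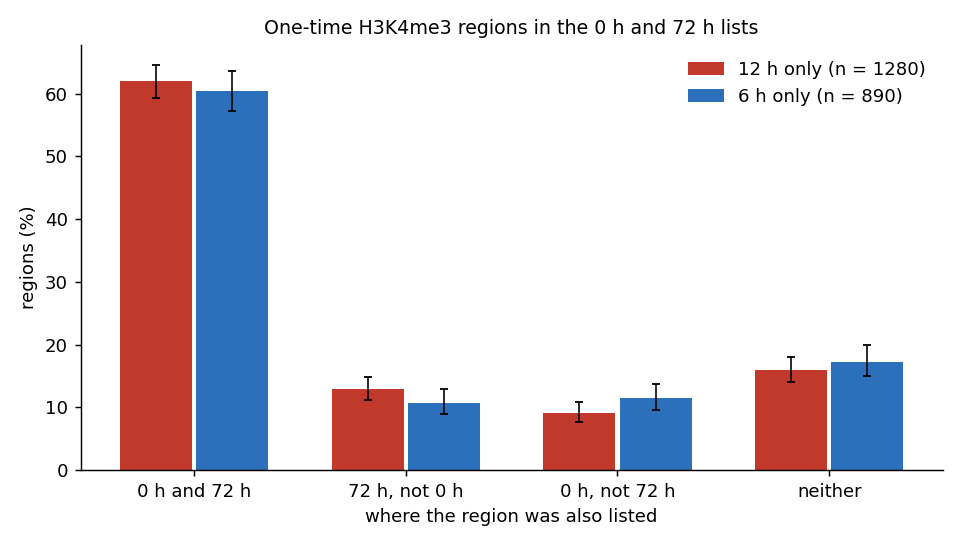
Share of regions listed at 12 h only (n = 1280) and at 6 h only (n = 890) that were also listed at both 0 h and 72 h, at one of them or at neither, in percent of each class. Bars are shares and lines are 95% Wilson intervals. The largest group in both classes, 62.0% and 60.4%, was listed before stimulation and at 72 h.

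The lists of 0 h and of 72 h share a folder, so the balance between them can be read within it. Among regions at 12 h only, 166 (13.0%, 11.2% to 14.9%) were listed at 72 h and not at 0 h, and 117 (9.14%, 7.68% to 10.8%) at 0 h and not at 72 h. Among regions at 6 h only these numbers were 96 (10.8%, 8.91% to 13.0%) and 102 (11.5%, 9.53% to 13.7%). Regions at 12 h only thus leaned to the 72 h list and those at 6 h only were even, but the intervals of the classes overlapped in each direction. Among shared regions the balance was the other way, with 142 listed at 72 h and not at 0 h and 250 at 0 h and not at 72 h.

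Regions listed at 12 h only lay more often on chromatin that Polycomb occupied before stimulation than regions listed at 6 h only. Ring1b, the ubiquitin ligase subunit of Polycomb repressive complex 1, overlapped 152 regions at 12 h only (11.9%, 10.2% to 13.8%) in the first 0 h replicate and 137 (10.7%, 9.13% to 12.5%) in the second. It overlapped 48 regions at 6 h only (5.39%, 4.09% to 7.08%) and 38 (4.27%, 3.13% to 5.81%). Shared 12 h regions overlapped it in 3.39% and 4.08%. The intervals of the one-time classes were apart for both Ring1b replicates. The H3K4me3 regions were the same in both, so the Ring1b replicates do not replicate the difference between 6 h and 12 h. Many of the 152 regions had H3K4me3 before stimulation, with 72 listed at both 0 h and 72 h and 21 at 0 h and not at 72 h. Another 24 were listed at 72 h and not at 0 h, and 35 at neither. For the 48 regions at 6 h only these numbers were 20, 12, 8 and 8.

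H3K27me3, the mark of Polycomb repressive complex 2, also overlapped more regions at 12 h only than at 6 h only, but here those at 6 h only lay below the shared ones. It overlapped 208 regions at 12 h only (16.3%, 14.3% to 18.4%) in the first 0 h replicate and 279 (21.8%, 19.6% to 24.1%) in the second. Of the regions at 6 h only it overlapped 39 (4.38%, 3.22% to 5.93%) and 69 (7.75%, 6.17% to 9.70%), and of the shared 12 h regions 6.07% and 9.69%. These Polycomb lists are of Wnt3KO cells at 0 h and were not used to choose the regions. The labels do not say that the replicates came from separate cultures.

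Split by fold, the Ring1b share was higher at 12 h only in each bin, though not always beyond counting error. In the first replicate it was 13.2% (10.4% to 16.6%) at 12 h only and 5.65% (3.56% to 8.86%) at 6 h only for folds below 6, and 12.9% (10.1% to 16.4%) and 4.97% (3.03% to 8.03%) for folds of 7 or more. For folds from 6 to 7 it was 9.04% (6.54% to 12.4%) and 5.57% (3.46% to 8.86%), and these intervals overlapped. Away from regions of the other list, 15.8% (13.1% to 18.9%) of regions at 12 h only and 7.80% (5.42% to 11.1%) of those at 6 h only, all more than 1 kb distant, overlapped Ring1b. With lists of equal length the shares were 11.6% and 4.95%. Seen from the Polycomb side, 597 of 1605 Ring1b regions of the first replicate (37.2%, 34.9% to 39.6%) overlapped an H3K4me3 region at 6 h and 701 (43.7%, 41.3% to 46.1%) at 12 h. Before stimulation and at 72 h, from the other folder, the shares were 49.2% and 50.9%, both above those of the early times.

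H3K27ac and open chromatin were less common at regions listed at one time than at shared ones. The one-time regions were also shorter and weaker, and these shares were not matched for length or fold. The 12 h H3K27ac list overlapped 96 of the 1280 regions at 12 h only (interval 6.18% to 9.07%), 106 of the 890 at 6 h only (9.94% to 14.2%) and 53.8% of shared 12 h regions. ATAC-seq at 0 h, from wild-type EpiSCs, overlapped 73.8%, 74.2% and 96.1%. Input regions overlapped at most 1.35% of either class.

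**Figure D2:**
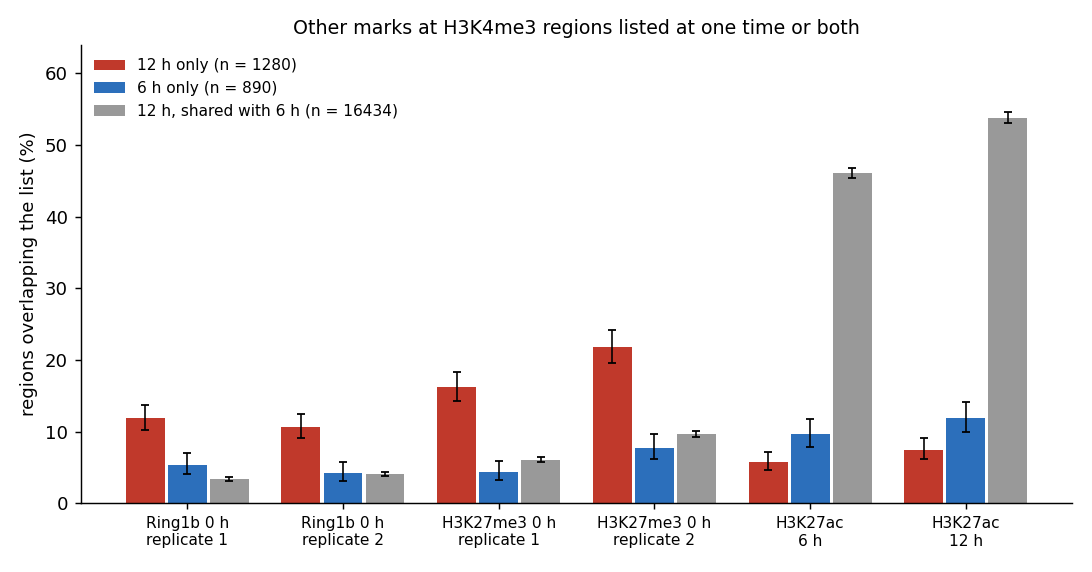
Share of H3K4me3 regions, in percent, that overlapped Ring1b and H3K27me3 at 0 h (replicates 1 and 2) and H3K27ac at 6 h and 12 h, for regions at 12 h only, at 6 h only and 12 h regions shared with 6 h. Lines are 95% Wilson intervals. In all 4 Polycomb lists the bar for 12 h only is the highest, and in both H3K27ac lists that for shared regions is.

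Covered length per 100 kb tile shifted slightly towards 12 h. Of 8485 tiles with a region at either time, 4728 (55.7%) had more covered bp at 12 h, 3735 had fewer and 22 were equal. The mean change was 57.2 bp per tile (SD over tiles 347 bp) and the median 32 bp, with 5th and 95th percentiles of −462 and 637 bp. A gain of at least 1 kb, a limit set after the values were seen, was found in 118 tiles (1.39%) and a loss of that size in 30 (0.354%). Of the 118 tiles, which were picked for added length at 12 h, 91 held a region at 12 h only, against 13.0% of all tiles.

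Tiles with Polycomb differed more between the times, mostly by gains. The 422 tiles with Ring1b in both 0 h replicates had a median change of 235 bp (SD over tiles 573 bp), with more covered bp at 12 h in 310 (73.5%), while the other 8063 tiles had a median of 27 bp (SD 326 bp) and 54.8%. A gain of at least 1 kb was found in 39 of the 422 (9.24%) and in 79 of the 8063 (0.980%), and a loss of that size in 6 (1.42%) and 24 (0.298%). Of the 118 tiles with such a gain, 85 (72.0%) had at least as much covered length at 72 h as at 12 h, against 82.9% of all tiles. At 0 h, 72 of the 118 (61.0%) had at least as much as at 12 h, against 77.3% of all tiles. Both of these lists come from the folder with the longer regions. Within the folder of the later and unstimulated lists, 83 of the 118 (70.3%) had more at 72 h than at 0 h, against 63.0% of all tiles. For the 30 tiles that lost at least 1 kb, 14 (46.7%) had more at 72 h than at 0 h, against the same 63.0%. The tiles with Ring1b as a whole did not show this lean to 72 h. Of the 422, 225 (53.3%) had more at 72 h than at 0 h, against 63.5% of the other 8063. At least as much at 72 h as at 12 h was found in 331 of the 422 (78.4%), against 83.1%. No interval was computed for these tile shares.

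**Figure D3:**
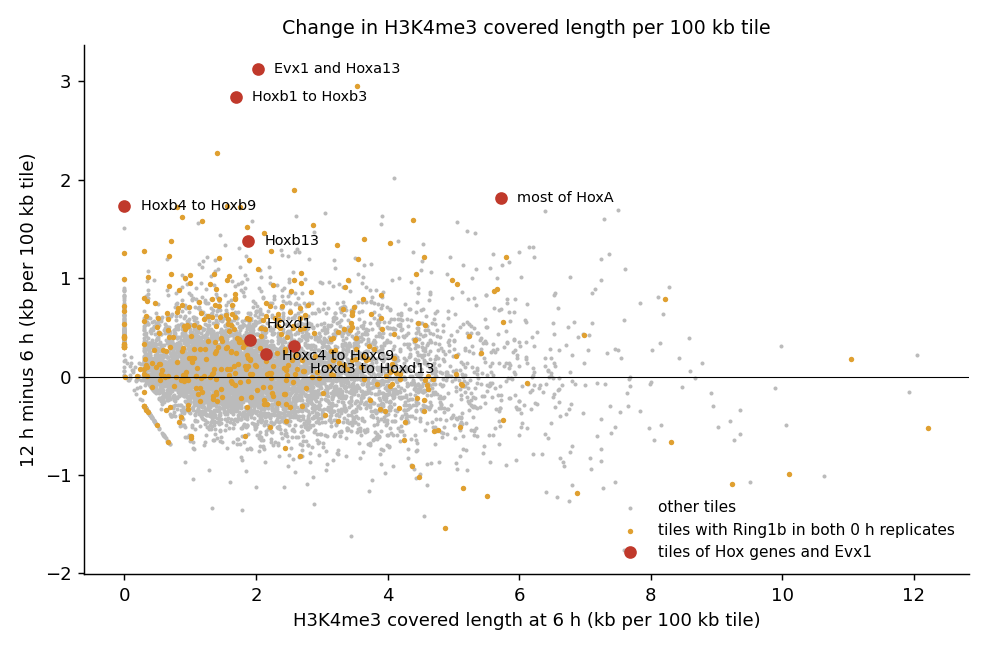
Change in H3K4me3 covered length from 6 h to 12 h (kb per 100 kb tile) against the covered length at 6 h (kb), for 8485 tiles; tiles with Ring1b in both 0 h replicates are orange and tiles with Hox genes or Evx1 red. The tile of Evx1 and Hoxa13 has the largest gain, 3130 bp, and the Hoxb1 to Hoxb3 tile gained 2846 bp.

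The tile with the largest gain held Evx1, a homeobox gene of the primitive streak that lies beside the HoxA cluster. On chromosome 6 from 52200001 to 52300000, H3K4me3 covered 1536 bp at 0 h, 2029 bp at 6 h, 5159 bp at 12 h and 5724 bp at 72 h. From 6 h to 12 h the gain was 3130 bp. The 12 h value stood close to that of 72 h, but the 72 h list is from the folder with the longer regions. Of its 5 regions at 12 h, 3 were listed at 12 h only, at 52261800 to 52263083 (fold 9.99), 52264455 to 52264828 (fold 5.82) and 52265078 to 52266017 (fold 10.1). All of them were listed at 72 h and none at 0 h. Of regions at 12 h only with that pattern and more than 100 kb from an input region, the last and the first had the highest folds. The first lay 267 bp and the last 734 bp from a 6 h region, within the 1 kb used for merging as an alternative. At 72 h the tile held 2 regions. H3K27ac covered 1009 bp more of the tile at 12 h than at 6 h. More H3K27ac at 12 h was found in 50.1% of all tiles and in 31.0% of those with Ring1b in both replicates. Within 2 kb of the Evx1 start, H3K4me3 covered 811 bp at 0 h, 1059 bp at 6 h, 2846 bp at 12 h and 3644 bp at 72 h.

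In HoxB, the Hoxb1 to Hoxb3 tile ranked 3 of 8485. On chromosome 11 from 96200001 to 96300000, covered length was 985 bp at 0 h, 1697 bp at 6 h, 4543 bp at 12 h and 5075 bp at 72 h. Here too 12 h was near 72 h, with the same limit of folder. H3K27ac covered length changed by 0 bp in this tile, unlike that of Evx1. In H3K4me3, 3 regions were listed at 12 h only. They were at Hoxb1 (96227324 to 96228215, fold 7.82), Hoxb2 (96210831 to 96211306, fold 9.62) and Hoxb3 (96202689 to 96203146, fold 5.05). All of them were listed at 72 h and none at 0 h.

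The rest of HoxB and HoxA had its highest covered length at 72 h. The Hoxb4 to Hoxb9 tile, ranked 8, had 1236 bp at 0 h, 0 bp at 6 h, 1738 bp at 12 h and 17723 bp at 72 h. Ranked 7, the tile with most of HoxA had 6004 bp at 0 h, 5724 bp at 6 h, 7542 bp at 12 h and 22036 bp at 72 h. In both the 12 h value exceeded those of 0 h and 6 h and was far under that of 72 h. The Hoxb13 tile, ranked 36, had 4840, 1881, 3260 and 6228 bp at the same times, so that its 12 h value lay under that of 0 h. The HoxC tile changed by 226 bp and the HoxD tiles by 315 and 367 bp, at ranks 2099, 1523 and 1235.

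Counted by region, 19 of the 38 regions of the 4 Hox clusters at 12 h (50%, 34.8% to 65.2%) were listed at 12 h only, against 7.23% of the whole list. At 6 h, 3 of 21 (14.3%, 4.98% to 34.6%) were listed at 6 h only, against 5.12%. Both intervals treat regions as independent, though these lie in 4 clusters and some are close neighbours. HoxA had 7 at 12 h only, HoxB 9, HoxC 1 and HoxD 2. Of the 19, 16 were listed at 72 h, against 74.9% of all regions at 12 h only. Listed at 72 h and not at 0 h were 12 of the 19, against 13.0% of all regions at 12 h only. With lists of equal length, 11 of 27 regions (40.7%) were listed at 12 h only.

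In HoxA, Hoxa2 had 1 region at 12 h only and another at 6 h only. Hoxa3 had 2 at 12 h only, the stronger from 52127309 to 52128207 (fold 7.99), and was covered over 0 bp at 0 h and 6 h, 858 bp at 12 h and 642 bp at 72 h. No region at 12 h was listed within 2 kb of Hoxa4, Hoxa6, Hoxa9, Hoxa10, Hoxa11 or Hoxa13, while Hoxa5 and Hoxa7 had 1 at both 6 h and 12 h.

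Of the 39 Hox start sites, 11 had a region within 2 kb at 6 h and 18 had one at 12 h, while 17 were marked before stimulation and 32 at 72 h. Those listed at 12 h and not at 6 h were Hoxa3, Hoxb1, Hoxb3, Hoxb7, Hoxb9, Hoxc5 and Hoxd13, and none was listed at 6 h and not at 12 h. Hoxb1, with 892 bp at 12 h and 1787 bp at 72 h, and Hoxb9, with 300 bp and 1897 bp, were unlisted at 0 h and 6 h. Hoxb7 was covered over 616 bp at 0 h, 0 bp at 6 h, 1134 bp at 12 h and 1449 bp at 72 h. Hoxd13 had 503, 0, 453 and 746 bp at the same times, and Hoxc5 had 300, 0, 300 and 0 bp. The windows of Hoxb7, Hoxd13 and Hoxc5 were thus marked before stimulation, unlike those of Hoxa3, Hoxb1, Hoxb3 and Hoxb9.

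Outside the Hox clusters no gene of the table switched between listed and unlisted. All 22 had a region at 0 h, 21 had one at both 6 h and 12 h and 20 had one at 72 h, and Tbx6 was the gene unlisted at both times compared. At 12 h, 12 had more covered bp than at 6 h and 9 had fewer, beside 55.7% of all tiles with more.

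Among primitive streak and mesoderm genes, T, a T-box factor needed for mesoderm, was covered over 1635 bp at 0 h, 2224 bp at 6 h, 3415 bp at 12 h and 1999 bp at 72 h. Its 12 h value was the highest of all 4 times. Fgf8, a growth factor of the streak, had the same shape at a lower level, with 642, 716, 1360 and 537 bp. Cdx2, a homeobox factor upstream of Hox genes, was already covered over 1889 bp at 6 h and had 1950 bp at 12 h, against 459 bp at 0 h. Tbx6, a factor of presomitic mesoderm, was covered over 417 bp at 0 h, 0 bp at 6 h and 12 h and 2542 bp at 72 h. Eomes, a T-box factor of early mesendoderm, had 3002, 3147, 2579 and 1732 bp, with 1 region at 6 h only. Wnt3 itself, which the labels give as knocked out, was covered over 2287, 2657, 2809 and 2127 bp.

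Wnt feedback genes were marked at all 4 times. Sp5, a zinc finger repressor induced by Wnt, was covered over 1697 bp at 0 h, 2760 bp at 6 h, 2986 bp at 12 h and 3834 bp at 72 h, with 1 region at 12 h only. Lef1, the TCF family factor, had 2228, 2053, 2132 and 3239 bp, and Axin2, part of the complex that degrades β-catenin, had 2257, 2192, 1763 and 2169 bp. Ccnd1 (cyclin D1) had 2558, 1249, 2286 and 2927 bp, with 2 regions at 12 h only. Myc changed by little, with 3518, 3262, 3243 and 3165 bp. Of these 5 genes, Ccnd1 differed most between 6 h and 12 h, and Ccnd1, Sp5 and Lef1 had more at 12 h.

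Pluripotency promoters were listed at both times, and Pou5f1 and Nanog were unlisted at 72 h. Pou5f1 was covered over 2615 bp at 0 h, 2591 bp at 6 h, 2240 bp at 12 h and 0 bp at 72 h. Nanog had 1800, 1661, 1555 and 0 bp, and Sox2 had 3183, 3050, 2868 and 3123 bp, with 1 region at each time only. Pou5f1, Nanog and Sox2 each had slightly less at 12 h than at 6 h, and Sox2 at 72 h was near its earlier values. Klf4, a factor of naive pluripotency, had 3184, 2565, 3132 and 3231 bp. The epiblast genes had 2388, 2064, 1885 and 1345 bp (Fgf5), 1730, 1292, 1394 and 615 bp (Otx2), 3039, 1840, 1997 and 909 bp (Pou3f1) and 894, 543, 330 and 641 bp (Nodal). For Fgf5, Otx2 and Pou3f1 the 72 h value was the lowest, while the values of 6 h and 12 h lay close together. The housekeeping gene Gapdh had 3326, 2611, 2584 and 3147 bp, so that both early lists were below the other pair there too.

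**Figure D4:**
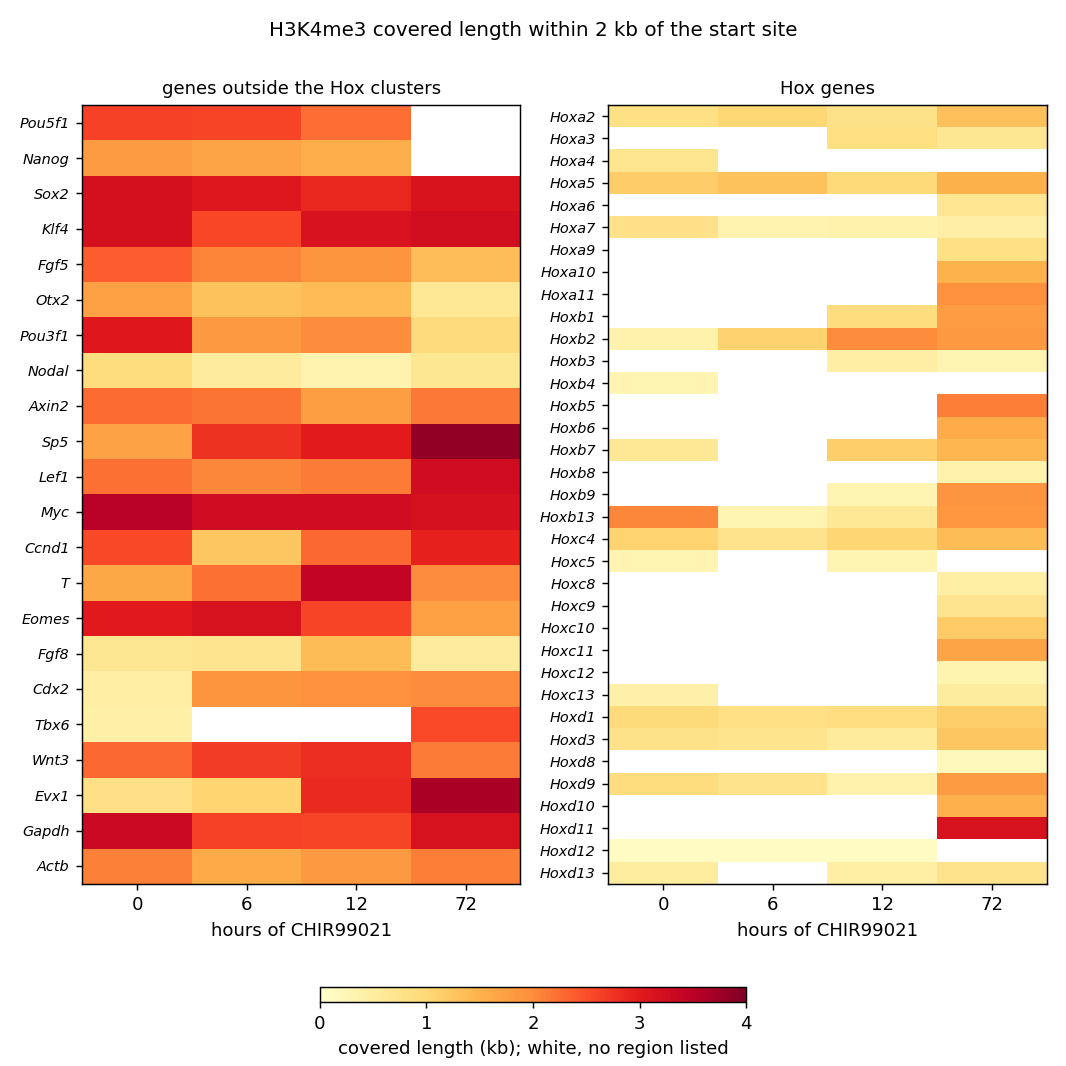
H3K4me3 covered length (kb, colour) within 2 kb of the start site at 0, 6, 12 and 72 h of CHIR99021, for 22 genes outside the Hox clusters and for Hox genes with a region at any time. White means that no region was listed. The 7 Hox genes listed at 12 h and not at 6 h are white at 6 h, and Pou5f1 and Nanog are white at 72 h.

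The strongest regions at 12 h only were elsewhere and had mostly been present before. The highest fold, 15.5, was on chromosome 2 from 118488856 to 118489423. The next among regions more than 100 kb from an input region was 13.9 on chromosome 6 from 48790606 to 48791134. Regions of fold 12.4 lay on chromosome 4 from 134708731 to 134709494 and on chromosome 5 from 118477895 to 118478405. Both overlapped Ring1b and H3K27me3 at 0 h in the first replicate, as did 11.9% and 16.3% of all regions at 12 h only. A region of fold 12.2 lay on chromosome 1 from 160292170 to 160292548. All of these were listed at 0 h and at 72 h, and none was within 2 kb of a gene of the table.

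Of the 890 regions at 6 h only, 5.39% overlapped Ring1b and 4.38% H3K27me3 in the first 0 h replicate. None of the 5 strongest more than 100 kb from an input region overlapped either list, too few regions to tell from those shares. They lay on chromosome 2 from 19475601 to 19476121 (fold 12.1), on chromosome 17 from 35772638 to 35773124 (fold 12.0) and, with a fold of 11.6 each, on chromosome 13 from 117815652 to 117816081, chromosome 3 from 108830575 to 108831078 and chromosome 8 from 70018621 to 70019206. The first was listed at 0 h and not at 72 h, as was a region on chromosome 1 from 173192908 to 173193426 (fold 11.3), and both overlapped H3K27ac at 6 h. The chromosome 13 region was listed at neither 0 h nor 72 h. Regions at 12 h only that were listed at 72 h but not at 0 h were ranked with the same distance from input. Those following the Evx1 and Hoxb2 regions lay on chromosome 9 from 44926555 to 44926972 (fold 9.55) and on chromosome 6 from 51329470 to 51329799 (fold 9.29).

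Other tiles with large changes held no gene of the start-site table. The second largest gain, 2952 bp on chromosome 17 from 86000001 to 86100000, had 6545 bp at 0 h, 3538 bp at 6 h, 6490 bp at 12 h and 3674 bp at 72 h, with 7 regions at 12 h only. It was nearly as covered at 12 h as before stimulation, and at 72 h nearly as little as at 6 h. The gains ranked 4 and 5 were 2271 bp on chromosome 7 from 77500001 and 2020 bp on chromosome 5 from 89100001. The largest loss was on chromosome 13 from 21800001 to 21900000, where covered length was 11798 bp at 0 h, 7599 bp at 6 h, 5834 bp at 12 h and 11790 bp at 72 h. Losses next in size were −1621 bp on chromosome 11 from 66300001, −1541 bp on chromosome 7 from 152000001, −1415 bp on chromosome X from 20200001 and −1358 bp on chromosome 4 from 148200001. In each of these 5 tiles the 72 h value was above that of 12 h, as in most tiles.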

How the data were processed

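H3K4me3 ChIP-seq libraries of Wnt3KO EpiSCs at 0, 6, 12 and 72 h (1 each) were compared as the peak lists that the authors deposited, in mm9. Of the 32 lists, 19 were used, and the 25 samples of 4C were not analysed here. Bowtie 1.1.0, SAMtools 0.1.19 and MACS2 2.1.0 are named in the submitters' processing notes. The sources used here do not name the background library. The deposited fold enrichment is the ratio of signal over local background from the authors' peak caller and served to describe, rank and bin regions within a list. The −log10 p values, and the −log10 q values corrected for multiple tests, were deposited by the authors too and served only in alternatives.

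Overlapping peaks were merged into regions, which removed none. Regions of different lists overlapped when they shared at least 1 bp. Covered bp were summed in 100 kb tiles with a region at either time. Python 3.11.15, pandas 2.3.3, numpy 2.4.6, scipy 1.17.1 and matplotlib 3.10.9 were used, and the overlap and tile functions were tested on simulated data. Depth is unknown, and no test was run with 1 library per time.

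The 61 start sites were placed from knowledge, as no mm9 annotation was used here. Within 2 kb of them, H3K4me3 at 0 h or 72 h was listed for 22 of 22 genes outside the Hox clusters, and for 0 and 2 when the sites were moved by 50 kb down or up. For Hox genes it was listed for 36 of 39, and for 12 and 13 when moved. Hox clusters reached 5 kb beyond their outer start sites.

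Named regions are the 5 of highest fold in each class (12 h only, 6 h only, 12 h only at 72 h and not at 0 h, 6 h only at 0 h and not at 72 h), more than 100 kb from an input region; those on chromosome 6 from 49317157, chromosome 5 from 33617845 and chromosome X from 47967804 complete the last class. Named tiles are the 5 with the largest gain and loss and those of the Hox genes, the latter added after their values were seen. Named genes are those of the start-site lists, with Hox genes that differed; 1 Hox gene is not reported here by name or in the plot by gene, though counts over clusters and tiles include it. The members, lists and rules were chosen with earlier results of these data known. As alternatives, overlap had to reach 50% of the smaller region, or the settings were −log10 q of at least 5, merging within 1 kb, lists of equal length (16287 regions), leaving out regions near input, and shifted or 50 kb tiles.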

Additional observations from a re-analysis of the deposited data

How the results depend on the processing

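No paired analysis was possible because each time point had 1 library and the labels pair none of them. Under a −log10 q of at least 5, and without regions near input, every share stayed within its interval. Requiring overlap of 50% of the smaller region, 8.08% of 12 h and 5.90% of 6 h regions were listed at one time only, and 69.6% and 65.8% of these were listed at 72 h. After merging within 1 kb, the one-time shares were 4.55% and 2.68%, over 1.5 times lower, and the 6 h only share at 72 h was 67.1%. Equal list lengths gave 6.03% and 5.59%, with 82.3% and 75.6% at 72 h, and the mean tile change was 42.9 bp. With 50 kb tiles it was 45.1 bp. Counting regions over 1 kb from the other list, an alternative chosen after seeing the data, the one-time shares were 3.54% and 1.99%, and 65.0% of the latter were listed at 72 h. Ring1b overlap of regions at 12 h only and 6 h only was 16.0% and 8.15% after merging and 15.8% and 7.80% over 1 kb away. The Hox share stayed within its interval, from 36.8% to 52.6%, and the number of tiles with more or fewer bp within 1.5 times. The order of 12 h above 6 h held under each of these settings for the one-time shares, the shares at 72 h and the Ring1b shares. For the shares at 72 h the intervals were apart only with equal list lengths. Unknown depth and lists without replicates limit all of these: a region missing from a list may have fallen under the caller's limit.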

Other observations

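Over the 17153 places where an H3K4me3 region was listed at any of the 4 times, 13384 (78.0%) were listed at all of them. Places missing at 6 h alone numbered 469, and places missing at 12 h alone 235. Ring1b of the first 0 h replicate overlapped 11.9% of the former and 7.66% of the latter, against 3.54% of places listed at all 4 times. Places listed at 12 h alone numbered 204, with Ring1b at 17.2%, and those listed at 6 h alone 154, with Ring1b at 5.19%. Places listed at 12 h and 72 h alone numbered 100, with Ring1b at 16.0%.

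By chromosome, covered length at 12 h exceeded that at 6 h by 0.192% (chromosome 16) to 4.10% (chromosome 17) on the autosomes, and by 0.884% on the X. On the X, 64 of 626 regions at 12 h (10.2%) were listed at 12 h only and 51 of 603 at 6 h (8.46%) at 6 h only, the highest share of any chromosome in both directions. The mitochondrial genome, which carries no nucleosomes, held 7 regions at 6 h and 9 at 12 h, with a change of −9.82%.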
